A study of Danio rerio with 4 samples.

Results

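The apelin ligands and receptors were followed across every cell type of the zebrafish trunk. The 4 genes, apln (ENSDARG00000053279), apela (ENSDARG00000094729), aplnra (ENSDARG00000002172) and aplnrb (ENSDARG00000036670), were taken by symbol from the 25432 genes listed, and all 4 were detected. Single cells came from trunks of zebrafish at 3 days post-fertilisation (dpf), with heads removed before dissociation. There were 2 libraries of flt1 mutants, whose allele the labels give as flt1ka604, and 2 libraries of WT animals. Flt1 is a decoy receptor for Vegfa, and the study used its mutant as a Vegfa gain of function. The labels give neither the number of embryos in a library nor whether the libraries came from separate clutches, so p-values between genotypes measure the spread between these libraries, which may be technical.

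Apelin, encoded by apln, and Apela (also called Elabela or Toddler), encoded by apela, are secreted peptides that bind G protein-coupled apelin receptors, which in zebrafish include the paralogues Aplnra and Aplnrb. In the zebrafish embryo, Apela guides mesendodermal cells at gastrulation and angioblasts towards the midline, while Apelin produced by endothelial tip cells acts in sprouting of trunk vessels. The receptors signal through Gαi proteins and recruit β-arrestins.

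After filtering, 4312 and 5569 cells remained in flt1 mutant libraries 1 and 2, against 3042 and 6688 cells in WT libraries 1 and 2. The libraries differed in depth, with medians of 5037.5 and 779 unique molecular identifiers (UMIs, counts of captured transcripts) per cell in the flt1 mutant libraries, against 8033 and 3760 UMIs in the WT libraries. Unnamed cluster 0 (6154 cells, median 583.5 UMIs) held 1119 and 2537 flt1 mutant cells against 297 and 2201 WT cells. Shares of all cells count it. Medians within classes were closer in erythroid-like cells (16938 and 16604.5 UMIs in flt1 mutants, 18524 and 15548 in WT). They were less close in fin fold mesenchyme-like cells (2085 and 2030 in flt1 mutants, 2834 and 6412 in WT). Of the 19611 retained cells, 68 carried a barcode sequence seen in more than 1 library, and no doublets were removed. Levels are given in CPM, the UMIs of a gene per 1000000 UMIs of a cell class in 1 library. They are relative levels, in which fewer cells that express a gene and less RNA per cell cannot be told apart. The apelin genes were kept out of the genes used for clustering, so the cell classes, written as "-like" because they were named from marker lists, were not built on them. Aplnra and Aplnrb are paralogues, and whether reads were shared between their genes was not tested.

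All retained cells together held 1643 UMIs of apln, 1551 of apela, 3538 of aplnra and 1249 of aplnrb. Among 27 classes or unnamed clusters, apln had 0 UMIs in 3, apela in 10, aplnra in 4 and aplnrb in 8. The genes were spread over different parts of the trunk. Mesenchymal and skeletal classes held most apela and much of the apln, while the largest single holders of receptor UMIs were basal epidermis-like cells for aplnra and erythroid-like cells for aplnrb.

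**Figure D1:**
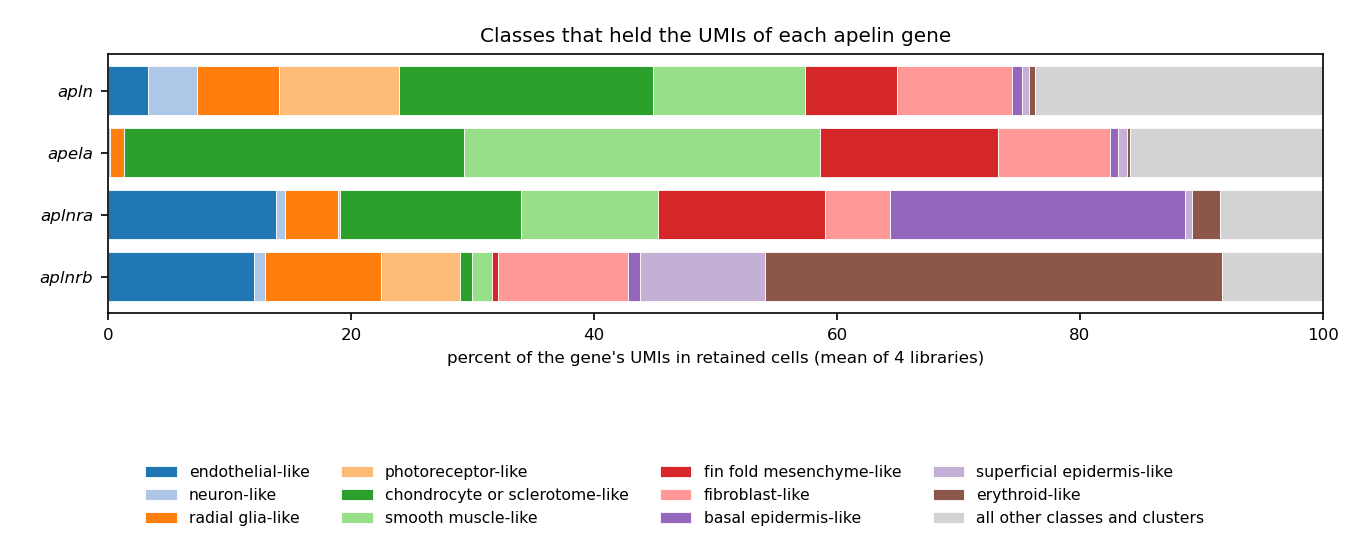
Share of each gene's UMIs (percent of its UMIs in retained cells, mean of 4 libraries) held by the trunk classes, with remaining classes and unnamed clusters in grey. Chondrocyte or sclerotome-like and smooth muscle-like cells held 28.0% and 29.3% of apela, basal epidermis-like cells 24.3% of aplnra and erythroid-like cells 37.6% of aplnrb, while endothelial-like cells held 3.33% of apln, 13.8% of aplnra and 12.0% of aplnrb.

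To ask where each gene was enriched, a class was set against all other cells of the same library, if no library had under 20 cells of it. UMIs were summed per library and class and tested with edgeR's quasi-likelihood test, and a gene is called where its p-value, adjusted by Benjamini-Hochberg over all genes tested, was under 0.05. Of 68 gene and class pairs, 16 were called higher in the class, 34 lower, and 18 were not called, and 16.7% of all gene and class pairs tested were called higher. The share of all pairs called lower is not given, so the count of lower calls is not read as a result. The share called higher was 9.29% in endothelial-like, 5.99% in mucous or lateral line-like, 9.51% in notochord-like, 12.4% in fin fold mesenchyme-like, 20.7% in chondrocyte or sclerotome-like, 20.8% in basal epidermis-like, 21.9% in smooth muscle-like and 24.9% in erythroid-like cells. By gene, 5 of 17 classes were called higher for apln, 4 for apela, 5 for aplnra and 2 for aplnrb. With scaling to library totals in place of the default scaling, 22 pairs were called higher, 34 lower and 12 were not called. No share of all pairs is given for that scaling. The pairs gained were apln, apela and aplnrb in fibroblast-like cells, apln and aplnrb in radial glia-like cells, and apln in neuron-like cells. For apln against the rest of the trunk the log2 fold was then 0.76 in neuron-like cells (adjusted p = 0.0138 with edgeR), against -0.34 with the default scaling, and 1.09 in radial glia-like cells (adjusted p = 0.00168), against 0.01. The median log2 fold of all genes also moved with the scaling. It went from -0.43 to 0.67 in neuron-like, from -0.18 to 0.89 in radial glia-like and from -0.17 to 0.44 in fibroblast-like cells. Whether neural classes had more apln than the rest of the trunk thus depends on the scaling. In these neural classes apln moved about as far as the median gene.

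**Figure D2:**
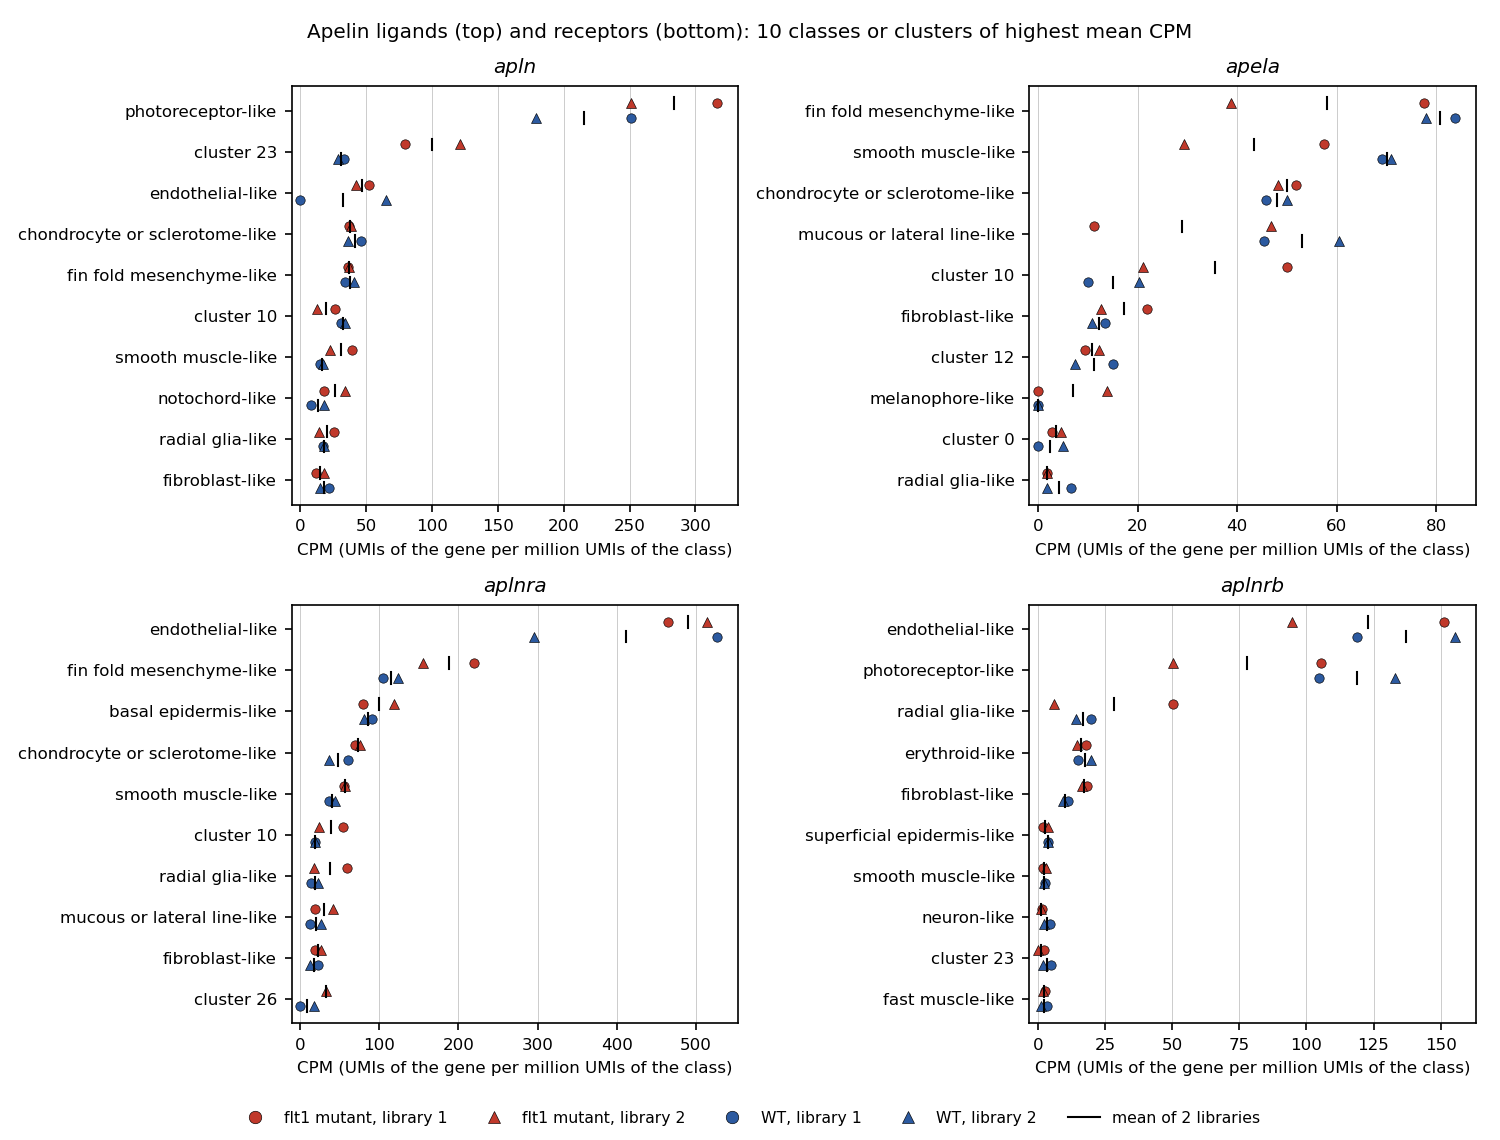
Level of the 4 apelin genes (CPM, horizontal axis) in the 10 classes or unnamed clusters of highest mean, one point per library, flt1 mutant in red above WT in blue, with bars at the mean of each genotype's 2 libraries. Endothelial-like cells lie apart from all other classes for aplnra, at 296 to 527 CPM, photoreceptor-like cells lie apart for apln, at 179 to 316 CPM, and apela has no single leading class.

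The ligand apln was highest in photoreceptor-like cells, at 316 and 251 CPM in the flt1 mutant libraries and 251 and 179 CPM in the WT libraries. These libraries held 1 and 10 flt1 mutant cells and 47 and 43 WT cells of the class, with 3 and 20 apln UMIs in the flt1 mutant libraries and 91 and 58 in the WT libraries, so no genotype test was made. The class averaged 249 ± 56.0 CPM (SD, n = 4 libraries), which did not overlap any other class. Cells with photoreceptor markers were thus present although heads had been removed. An unnamed cluster of 67 cells (cluster 26), with gnb3a, vsx1 and crx among its leading genes, lay in 3 libraries. It had 9 cells in flt1 mutant library 2 against 38 and 20 cells in the WT libraries. Whether some neural-like cells came from the head was not tested, so their values may not be of the spinal cord alone.

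Next came an unnamed cluster of 101 cells (cluster 23), led by ccr9a, myb and spi2, where apln stood at 79.9 and 121 CPM in the flt1 mutant libraries against 33.1 and 28.3 CPM in the WT libraries. Its place rests on the flt1 mutant libraries, since its WT mean of 30.7 CPM was below the WT means of chondrocyte or sclerotome-like (41.4 CPM), fin fold mesenchyme-like (37.6 CPM) and endothelial-like cells (32.5 CPM). Endothelial-like cells followed at 52.2 and 42 CPM in the flt1 mutant libraries against 0 and 65.1 CPM in the WT libraries. WT library 1 had 0 apln UMIs in 23 endothelial-like cells, a count that allows up to 22.3 CPM, while the other libraries held 10 to 31. Endothelial-like cells had more apln than the rest of the trunk (log2 fold 1.45, SE 0.30, adjusted p = 7.42e-06). The call was lost without WT library 2 (1.02, adjusted p = 0.054) and with DESeq2 (1.18, adjusted p = 0.118).

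Mesenchymal classes also held apln. Chondrocyte or sclerotome-like cells, the axial skeleton lineage, had 36.7 and 38.2 CPM in the flt1 mutant libraries against 46.3 and 36.5 CPM in the WT libraries, and 20.9% of apln UMIs. Fin fold mesenchyme-like cells, which support the larval fin, were nearly level among libraries at 36.2 and 37.2 CPM in flt1 mutants against 34.1 and 41.1 CPM in WT. Both classes were enriched, by 1.71 (SE 0.12, adjusted p = 7.34e-08) and 1.59 (SE 0.20, adjusted p = 9.66e-15) on the log2 scale. Cluster 23, endothelial, chondrocyte or sclerotome and fin fold values overlapped, so the order of these classes is not resolved.

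Smaller enrichments of apln were called in notochord-like cells (1.04, SE 0.31, adjusted p = 0.00885) and smooth muscle-like cells (0.71, SE 0.24, adjusted p = 0.0221). The notochord call was lost without flt1 mutant library 2 (0.79, adjusted p = 0.098). The smooth muscle call was lost without flt1 mutant library 1 (0.28, adjusted p = 0.249) and with DESeq2 (0.62, adjusted p = 0.137). In fast muscle-like cells, with medians of 80731 UMIs per flt1 mutant cell and 82253 per WT cell, apln was at 0 UMIs in all 4 libraries.

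The second ligand, apela, had its highest means in 3 mesenchymal or skeletal classes. Fin fold mesenchyme-like cells had 77.7 and 38.7 CPM in the flt1 mutant libraries against 83.8 and 78.0 CPM in the WT libraries. Smooth muscle-like cells had 57.6 and 29.4 CPM in flt1 mutants against 69.2 and 70.9 CPM in WT, and chondrocyte or sclerotome-like cells 51.8 and 48.2 CPM in flt1 mutants against 45.8 and 50.04 CPM in WT. The 3 classes overlapped in level. Each was enriched over the rest of the trunk, by 2.69 (SE 0.17, adjusted p = 1.76e-54) in fin fold mesenchyme, 2.38 (SE 0.17, adjusted p = 2.59e-08) in smooth muscle and 2.26 (SE 0.13, adjusted p = 1.34e-08) in chondrocyte or sclerotome-like cells on the log2 scale. Fibroblast-like cells were not called higher for apela (0.21, SE 0.17, adjusted p = 0.299 with edgeR).

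Mucous or lateral line-like cells were also called higher for apela (1.40, SE 0.39, adjusted p = 0.0254), with 11.2 and 46.8 CPM in the flt1 mutant libraries against 45.5 and 60.5 CPM in the WT libraries. That call was lost when flt1 mutant library 2 (adjusted p = 0.14), WT library 1 (adjusted p = 0.0551) or WT library 2 (adjusted p = 0.136) was left out. Endothelial-like cells had 0 apela UMIs in all 4 libraries, and fin fold mesenchyme-like cells were at least 28.1-fold higher (3 counts over the summed endothelial UMIs, 2.53 CPM, taken as the floor). Neural-like cells held 20 apela UMIs among 2139 cells, and fin fold mesenchyme-like cells were 36.9-fold higher.

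The receptor aplnra was highest in endothelial-like cells, at 464 and 515 CPM in the flt1 mutant libraries against 527 and 296 CPM in the WT libraries. All 4 libraries were above every other class, and the log2 fold over the rest of the trunk was 3.74 (SE 0.18, adjusted p = 2.65e-91). The class nonetheless held 13.8% of aplnra UMIs, because it made up 0.833% of cells.

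Fin fold mesenchyme-like cells came second for aplnra, at 220 and 155 CPM in the flt1 mutant libraries against 105 and 123 CPM in the WT libraries. Basal epidermis-like cells, the keratinocytes next to the basement membrane, had 79.1 and 119 CPM in flt1 mutants against 90.7 and 80.2 CPM in WT. Both classes were enriched, by 2.55 (SE 0.14, adjusted p = 6.38e-75) and 2.67 (SE 0.13, adjusted p = 7.37e-11) on the log2 scale. Their ranges overlapped, so their order is not resolved.

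Chondrocyte or sclerotome-like cells had 69.6 and 75.9 CPM of aplnra in the flt1 mutant libraries against 59.9 and 36.5 CPM in the WT libraries, and smooth muscle-like cells 55.7 and 56.8 CPM in flt1 mutants against 36.1 and 43.6 CPM in WT. Both were called higher than the rest of the trunk, by 1.08 (SE 0.13, adjusted p = 1.73e-05) and 0.62 (SE 0.10, adjusted p = 0.000158). Notochord-like cells had 0 UMIs of either receptor in all 4 libraries.

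The receptor aplnrb was called higher in endothelial-like and erythroid-like cells. Endothelial-like cells had 151 and 94.5 CPM in the flt1 mutant libraries against 119 and 155 CPM in the WT libraries (log2 fold 3.49 over the rest, SE 0.23, adjusted p = 1.55e-48). Photoreceptor-like cells overlapped them at 105 and 50.2 CPM in flt1 mutants against 105 and 133 CPM in WT, from 1 and 4 UMIs in the flt1 mutant libraries and 38 and 43 in the WT libraries.

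Erythroid-like cells had 17.7 and 14.4 CPM of aplnrb in the flt1 mutant libraries against 14.9 and 19.7 CPM in the WT libraries. They held 468 UMIs, 37.6% of all aplnrb UMIs on average (35.4% to 39.9% by library), with 8.99% of cells and 16.0% of all UMIs. The log2 fold over the rest was 4.34 (SE 0.17, adjusted p = 4.45e-22). This size depends on scaling, since it was 1.70 with library totals, and the median of all genes moved by -2.62 between the scalings in this class. An aplnrb UMI was found in 22.2% of flt1 mutant and 23.1% of WT erythroid-like cells. An aplnra UMI was found in 3.19% of flt1 mutant and 3.54% of WT cells of the class. Median depths were 16839 UMIs in flt1 mutant and 16793.5 UMIs in WT erythroid-like cells. Thinned to 1000 UMIs per cell, their aplnrb shares were 1.91% in flt1 mutants and 1.89% in WT.

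The balance of the receptors differed between classes. Endothelial-like cells held 3.21 aplnra UMIs for each aplnrb UMI (1.91 to 5.44 by library). The ratio was 82.5 in fin fold mesenchyme-like, 71.8 in basal epidermis-like, 42.7 in chondrocyte or sclerotome-like and 20.8 in smooth muscle-like cells. It was near parity in radial glia-like cells (1.28, 0.704 to 2.86 by library) and fibroblast-like cells (1.43, 1.05 to 1.96), and it was 0.16 in erythroid-like cells (0.0851 to 0.278). In neural-like cells both receptors lay mostly in the same subsets, in unequal shares. A glial subset of 22 cells held 67.2% of aplnrb and 24.2% of aplnra UMIs. Dividing progenitor-like cells held 15.7% of aplnrb and 62.9% of aplnra UMIs. The ratio of the whole class is thus not that of its subsets. Library ranges of the fin fold mesenchyme-like, basal epidermis-like, chondrocyte or sclerotome-like and smooth muscle-like cells lay above that of endothelial-like cells, and that of erythroid-like cells lay below it. These ratios are a description over 4 libraries, and the capture of the transcripts may differ between the genes by a factor common to all classes.

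Endothelial-like cells were examined further, since the study addressed signalling from neural to endothelial cells. All 11 endothelial markers were detected in every library, and kdrl, the main Vegfa receptor gene, stood at 804 and 651 CPM in the flt1 mutant libraries against 683 and 705 CPM in the WT libraries. The targeted gene flt1 had 240 and 168 CPM in flt1 mutant against 208 and 210 CPM in WT endothelial-like cells, which checks nothing about the labels, since a 3′ tag need not cover the altered part of the gene. The class was small, at 34 and 53 flt1 mutant cells against 23 and 56 WT cells. Transcripts of other cell types were present as well. The fast muscle list summed to 11300 and 11300 CPM in flt1 mutants against 6700 and 11600 CPM in WT, and the erythroid list to 845 and 580 CPM in flt1 mutants against 3080 and 569 CPM in WT. Their part in the apelin values was not tested.

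At least 1 UMI of aplnra was seen in 51.7% of flt1 mutant and 57.0% of WT endothelial-like cells, at median depths of 6143 UMIs in flt1 mutants and 6422 UMIs in WT. In erythroid-like cells, given for comparison, the shares were 3.19% in flt1 mutants at a median of 16839 UMIs and 3.54% in WT at 16793.5 UMIs. Thinned to 1000 UMIs per cell, with 29 flt1 mutant and 12 WT cells left out, the endothelial shares were 27.6% in flt1 mutants (exact 95% interval 16.7% to 40.9%) and 22.4% in WT (13.1% to 34.2%).

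For aplnrb, 27.6% of flt1 mutant and 38.0% of WT endothelial-like cells had a UMI. Superficial epidermis-like cells had 5.21% in flt1 mutants at a median of 21699.5 UMIs and 6.54% in WT at 18884.5 UMIs. Basal epidermis-like cells had 0% in flt1 mutants at a median of 15400 UMIs and 0.769% in WT at 14389 UMIs. Thinned in the same way, aplnrb shares of endothelial-like cells were 12.1% in flt1 mutants and 10.4% in WT. Those of erythroid-like cells were 1.91% in flt1 mutants and 1.89% in WT. For apln the endothelial shares were 12.6% in flt1 mutants and 17.7% in WT, against 0.128% in flt1 mutant and 0.472% in WT erythroid-like cells. Thinned, the endothelial apln shares were 6.90% in flt1 mutants and 2.99% in WT. These shares pool the cells of each genotype's 2 libraries, so their intervals cover counting error only and do not compare the genotypes. By library, an apln UMI was in 14.7% and 11.3% of flt1 mutant against 0% and 25% of WT endothelial-like cells. Of the 166 endothelial-like cells, 90 had aplnra, 54 had aplnrb, 46 had both and 98 had either. Of the 25 cells with apln, 16 also had aplnra and 14 also had aplnrb, so ligand and receptor transcripts occurred in the same cells.

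**Figure D3:**
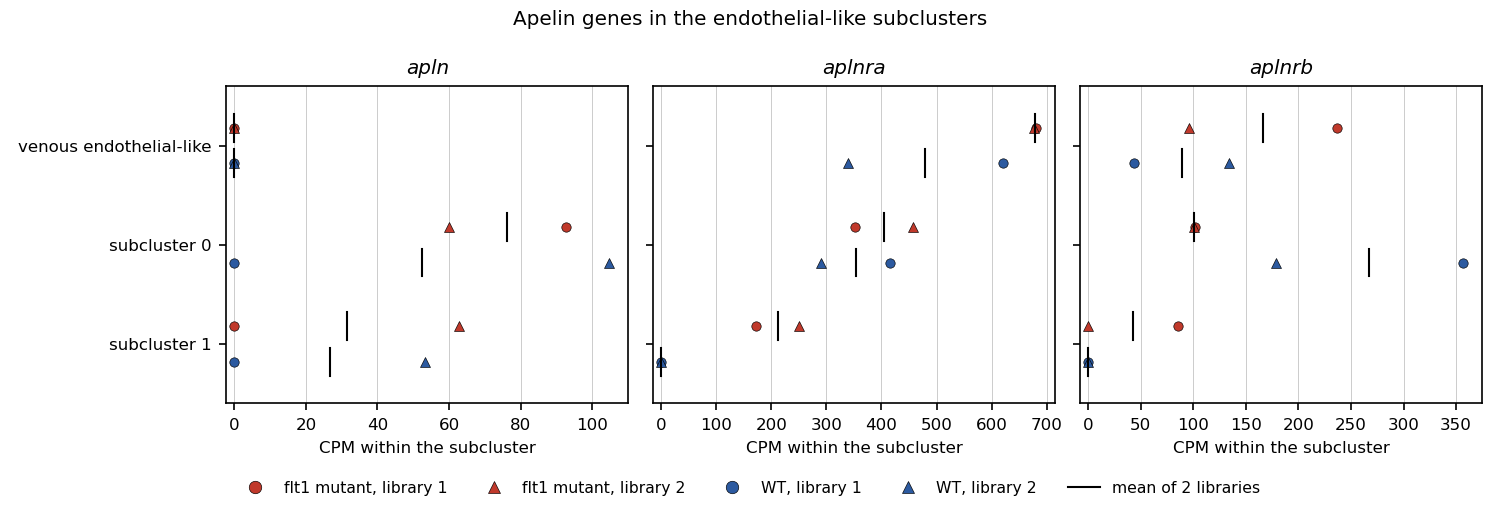
Level of apln, aplnra and aplnrb (CPM within the subcluster, horizontal axis) in the 3 endothelial-like subclusters, one point per library, flt1 mutant in red above WT in blue, with bars at the mean of each genotype's 2 libraries. In venous-like cells apln is at 0 in all 4 libraries, and aplnra is at 338 to 681 CPM.

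Clustering of the endothelial-like cells gave 3 subclusters. A venous-like subcluster of 51 cells was led by lyve1a, stab1, stab2 and lyve1b. Subcluster 0, with 59 cells, was led by aqp8a.1, plvapa, cxcr4b, angpt2a and esm1, the last 2 being tip cell genes. Of the 10 arterial markers, 9 were detected and higher in it, but genes of another list led, so it was left unnamed. Its arterial list summed to 13700 and 8090 CPM in the flt1 mutant libraries against 7910 and 6690 CPM in the WT libraries. Its venous list summed to 1040 and 1430 CPM in flt1 mutants against 1810 and 1500 CPM in WT. Subcluster 1, with 56 cells of low depth, held many globin and muscle transcripts.

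The ligand and the receptors were placed differently among them. Subcluster 0 held 55 of the 57 endothelial apln UMIs, at 92.6 and 60.1 CPM in the flt1 mutant libraries against 0 and 105 CPM in the WT libraries, where WT library 1 had only 3 cells. Venous-like cells had 0 apln UMIs in every library. Subcluster 0 was thus at least 12.2-fold higher in apln, with 3 counts over the summed venous-like UMIs (6.66 CPM) as the floor. When the clustering was repeated with names sorted in another order, the venous-like subcluster again had 51 cells, 49 of them shared, and the apln mean of that set was 2.81 CPM.

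In venous-like cells aplnra stood at 681 and 677 CPM in the flt1 mutant libraries against 620 and 338 CPM in the WT libraries, and in subcluster 0 at 352 and 457 CPM in flt1 mutants against 416 and 290 CPM in WT. The venous-like value was the higher in each of the 4 libraries, without a test. Values of aplnrb followed no such order. They were 236 and 95.4 CPM in flt1 mutant against 43.5 and 134 CPM in WT venous-like cells, and 102 and 100 CPM in flt1 mutant against 357 and 178 CPM in WT cells of subcluster 0. No subcluster met the naming rule for arterial-like, so the planned comparison of arterial-like with venous-like cells was not made.

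Endothelial-like cells were then compared with neural-like cells, the neuron-like and radial glia-like classes together. Both receptors were higher in endothelial-like cells, aplnra by 4.70 (SE 0.32, adjusted p = 1.95e-09) and aplnrb by 3.50 (SE 0.34, adjusted p = 1.68e-07) on the log2 scale. The ligand apln was also higher in endothelial-like cells (1.37, SE 0.39, adjusted p = 0.00766). All 3 genes tested were called, as were 49.3% of all genes. The apln call was lost without WT library 2 (1.01, adjusted p = 0.122) and with DESeq2 (1.12, adjusted p = 0.0881). The fold turned to -7.22 once the unnamed subclusters were left out, since the venous-like cells that then remained had 0 apln UMIs. A fold against 0 UMIs is not an estimate of size. With 3 counts over the summed venous-like UMIs (6.66 CPM) as the floor, all neural-like cells together (17.2 CPM) were at least 2.58-fold higher.

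Within the neural-like cells, apln was concentrated in a ventral group. The class had 22.4 and 15.2 CPM of apln in the flt1 mutant libraries against 15.2 and 17.1 CPM in the WT libraries. Floor plate or p3-like cells, of the ventral spinal cord that produces Sonic hedgehog, had 76.1 and 127 CPM in the flt1 mutant libraries against 49.6 and 78.6 CPM in the WT libraries. These 88 cells were 4.11% of neural-like cells and held 32.6% of their apln UMIs (58 of 178). The log2 fold over the other neural-like cells was 2.61 (SE 0.35, adjusted p = 1.16e-11), where 17.1% of genes were called higher. Across the tested neural subsets 13.2% of gene and subset pairs were called higher, and 2 pairs of the apelin genes were.

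Among neurons, V1-like interneurons had 24.5 and 33.5 CPM of apln in flt1 mutants against 16.3 and 37.3 CPM in WT, and glutamatergic-like neurons 37.3 and 15.06 CPM in flt1 mutants against 20.6 and 20.9 CPM in WT. Neither differed from the other neural-like cells by the test (0.41, SE 0.40, adjusted p = 0.436, and 0.30, SE 0.34, adjusted p = 0.579). GABA or glycine-like neurons had 0 apln UMIs in 61 cells.

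**Figure D4:**
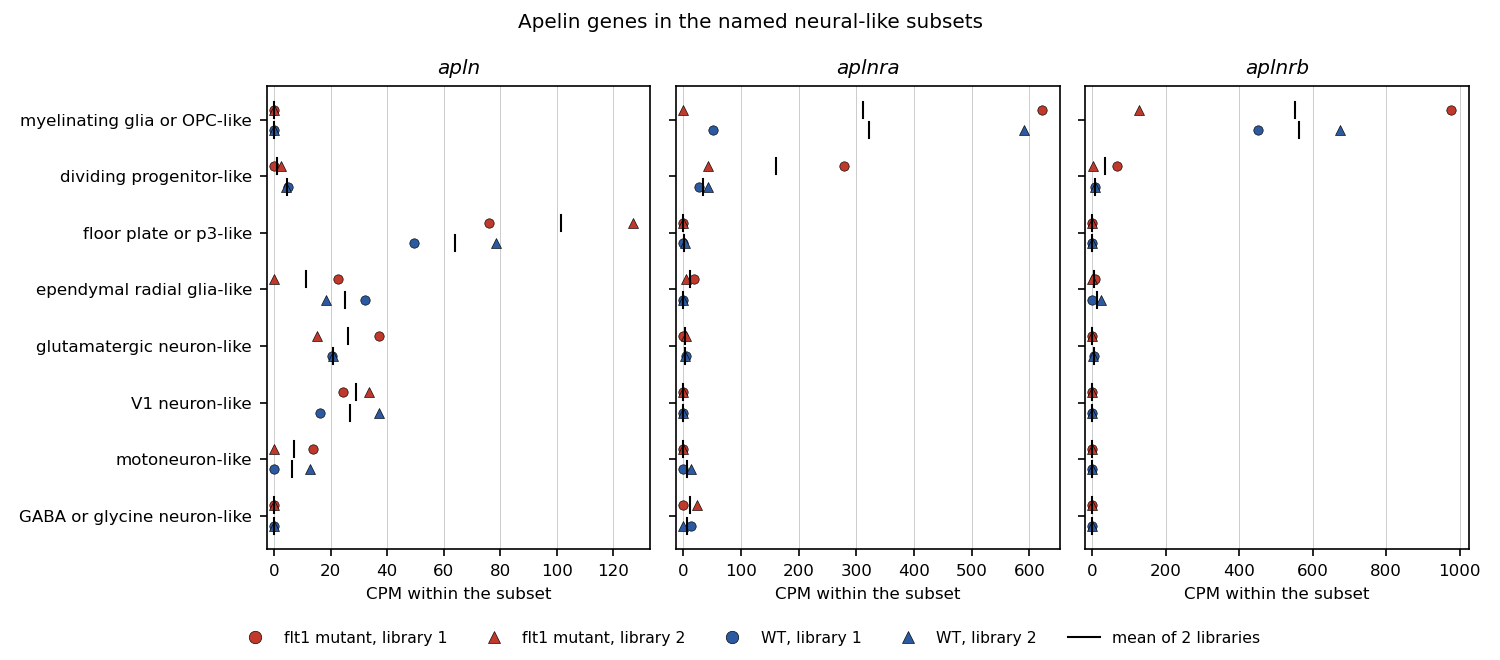
Level of apln, aplnra and aplnrb (CPM within the subset, horizontal axis) in the 8 named neural-like subsets, one point per library, flt1 mutant in red above WT in blue, with bars at the mean of each genotype's 2 libraries. Floor plate or p3-like cells lead for apln at 49.6 to 127 CPM and have 1 UMI of aplnra and 0 of aplnrb, while myelinating glia or OPC-like cells lead for aplnrb at 126 to 976 CPM and have no apln UMI. The latter subset has 22 cells and no UMI of the myelin genes mbpa, plp1b and mpz.

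Receptor transcripts in neural-like cells lay elsewhere than the ligand. A subset of 22 cells with markers of myelinating glia or oligodendrocyte precursors (OPCs), among them sox10 and olig2, held 90 of the 134 neural aplnrb UMIs, which is 67.2% in 1.03% of the cells. Its libraries stood at 976 and 126 CPM of aplnrb in flt1 mutants against 452 and 675 CPM in WT, from 44 and 4 UMIs in the flt1 mutant libraries and 26 and 16 in the WT libraries. All 4 values were above the neural-like mean, but with 4 to 8 cells in a library the subset was too small for the test. Of the 8 markers on the list behind the name, only 2 had a UMI in every library, and the myelin genes mbpa, plp1b and mpz had 0 UMIs in all 4, so the myelinating part of the name has no myelin transcript behind it. Of the 11 endothelial markers, 10 had 0 UMIs in these cells. A separate class of 95 myelinating glia-like cells, led by mbpa, held 6 UMIs of apln, 4 of aplnra and 1 of aplnrb.

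The same glial subset held 24.2% of the neural aplnra UMIs, unevenly, at 621 and 0 CPM in flt1 mutants against 52.1 and 591 CPM in WT. Dividing progenitor-like cells held 62.9% of neural aplnra UMIs, at 278 and 43.2 CPM in the flt1 mutant libraries against 27.2 and 42.1 CPM in the WT libraries (log2 fold 3.36 over other neural-like cells, SE 0.32, adjusted p = 9.8e-07), where 18.5% of genes were called higher. Flt1 mutant library 1 stood apart here, with 33 UMIs from 2 of 13 cells. Floor plate or p3-like cells, the named neural subset of highest mean apln, held 1 aplnra UMI and 0 aplnrb UMIs.

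The genotype comparison asked whether the apelin genes differed in the flt1 mutants. No apelin gene was called in the whole trunk, where 0.466% of all genes were called (84 of 18036). With all cells summed, aplnra had 20.5 and 23.5 CPM in the flt1 mutant libraries against 19.2 and 16.1 CPM in the WT libraries. The groups did not overlap, which with 2 libraries per genotype happens often by chance, and the share of all genes without overlap was not counted. The log2 fold of 0.37 (SE 0.10) had an unadjusted p of 0.0111 and an adjusted p of 0.181 from edgeR. The other genes were within their spread, at -0.10 (SE 0.15) for apln, -0.11 (SE 0.18) for apela and -0.06 (SE 0.15) for aplnrb.

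In endothelial-like cells 0 of 3 apelin genes were called by edgeR, where 0.0854% of genes were, and 0 had an unadjusted p under 0.05 with edgeR or DESeq2. The log2 folds were -0.03 (SE 0.64) for apln, 0.29 (SE 0.31) for aplnra and -0.28 (SE 0.34) for aplnrb. In neural-like cells 0 of 3 were called, where 0.00883% of genes were, and again 0 had an unadjusted p under 0.05 with either tool. There the log2 folds were 0.16 (SE 0.30) for apln, 0.67 (SE 0.62) for aplnra and 0.64 (SE 0.78) for aplnrb. The difference between the genotype effects of these classes was also tested, and 0 of 3 genes were called (0.232% of all genes were), with 0 at an unadjusted p under 0.05 by edgeR or DESeq2. Changes near or below these SEs were not detectable at this depth, and changes of several SEs could also go uncalled. Photoreceptor-like cells were fewer in the flt1 mutant than in the WT libraries. Whether head cells among the neural-like cells were as uneven was not tested, and such a difference cannot be told apart from genotype.

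**Figure D5:**
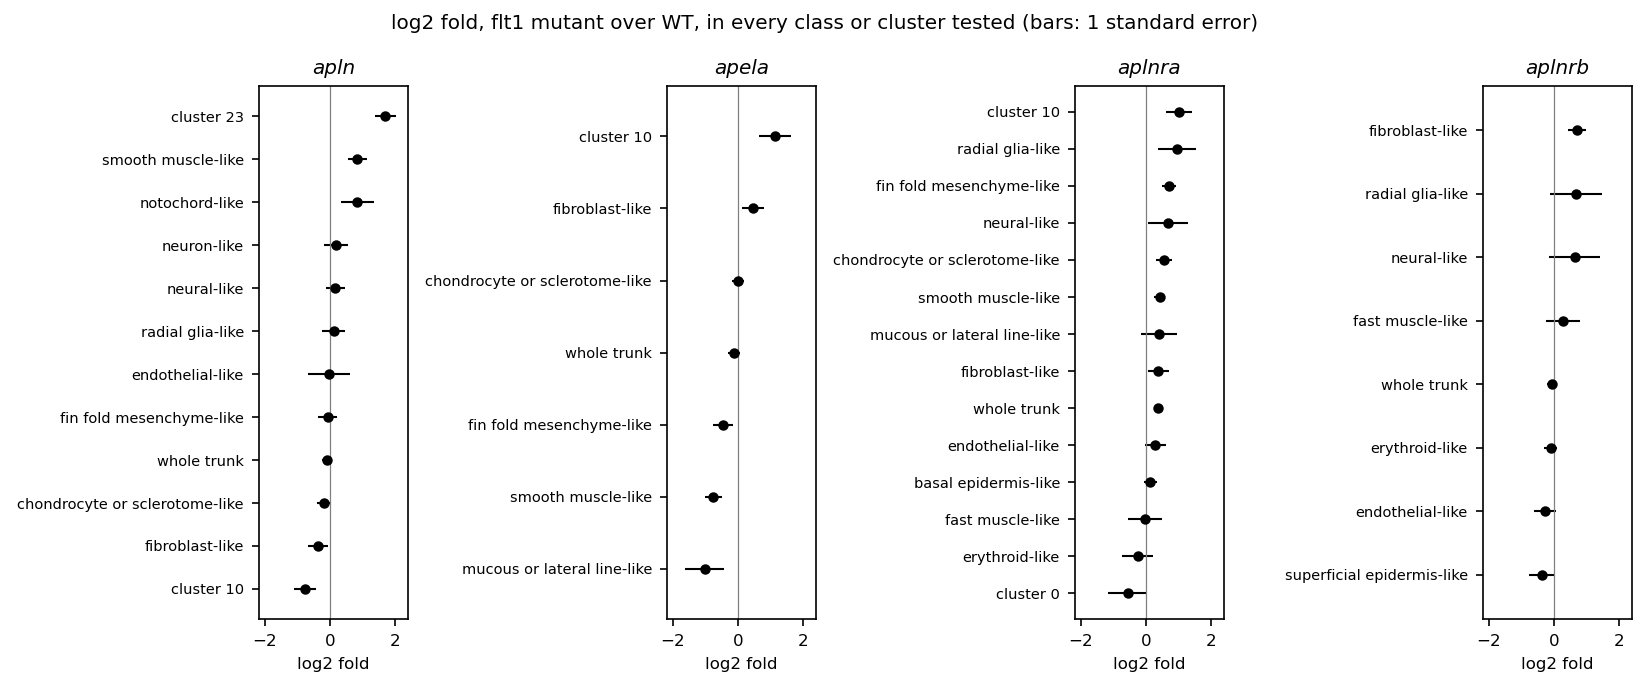
Genotype difference of each apelin gene (log2 fold, flt1 mutant over WT, horizontal axis) in every class or cluster tested, with bars of 1 SE. Values scatter on both sides of 0, the highest is 1.70 for apln in cluster 23, and none was called at an adjusted p under 0.05.

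Across the other classes 26 gene and class pairs were tested, and edgeR called 0, where 1.43% of all gene and class pairs were called. Of these pairs 5 had an unadjusted p under 0.05 by edgeR and 2 by DESeq2, 16 were positive and 10 negative, and the median log2 fold was 0.15 against -0.01 for all genes. The share of all genes with such an unadjusted p was not set beside this count, so the count is not read as a result. Of the 5, 3 lay in smooth muscle-like cells, where apela was lower in flt1 mutants (-0.76, SE 0.27, adjusted p = 0.275) while apln (0.85, SE 0.30, adjusted p = 0.283) and aplnra (0.42, SE 0.16, adjusted p = 0.324) were higher. For apln, smooth muscle-like cells had 39.0 and 22.3 CPM in flt1 mutants against 15.0 and 17.3 CPM in WT. The groups did not overlap for any of these genes, which were picked by their p-values, so this is no further support. The summed level of the 9 erythroid markers in these smooth muscle-like cells did not overlap either, at 5740 and 3360 CPM in flt1 mutants against 385 and 500 CPM in WT, and its part in these results was not tested. Leaving out a library, which assumes that the lone library of its genotype varies like the others, brought apela and apln past the threshold in some fits. The apela folds were then -1.32 without flt1 mutant library 1, -0.80 without WT library 1 and -0.72 without WT library 2. The apln fold was 0.97 without WT library 2. The share of all genes called in these fits is not given, so the calls are not read as results.

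Also without overlap, aplnra in fin fold mesenchyme-like cells was 0.70 (SE 0.22, adjusted p = 0.332) on the log2 scale. In this class the summed erythroid list overlapped between genotypes, at 40400 and 923 CPM in flt1 mutants against 527 and 6560 CPM in WT. The list was uneven among libraries, and its part in the result was not tested. Without flt1 mutant library 2 the aplnra fold was 0.96, and without WT library 2 it was 0.81. The fifth pair was aplnrb in fibroblast-like cells, at 18.2 and 16.4 CPM in flt1 mutants against 11.2 and 9.15 CPM in WT (0.71, SE 0.27, adjusted p = 0.398). Radial glia-like cells had 50.4 and 5.93 CPM of aplnrb in flt1 mutants against 19.6 and 14.1 CPM in WT, which overlapped. The fold was 1.51 when flt1 mutant library 2 was left out.

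The same test was run on unnamed clusters that had 10 cells or more per library, a choice made after their values were seen. Of 5 pairs edgeR called 0, where 0.0445% of all gene and cluster pairs were called. Unadjusted p-values under 0.05, again without the share of all genes beside them, were found for 3 pairs by edgeR and 1 by DESeq2. The furthest was apln in cluster 23 (1.70, SE 0.33, adjusted p = 0.287). Its 38 and 79 UMIs in flt1 mutants came from 4 of 23 and 8 of 28 cells, against 14 and 16 UMIs from 2 of 19 and 8 of 31 cells in WT. The endothelial list summed to 233 and 104 CPM in the flt1 mutant libraries against 125 and 104 CPM in the WT libraries of this cluster, and the erythroid list to 40200 and 15000 CPM in flt1 mutants against 35600 and 37600 CPM in WT. Their part in the result was not tested. In cluster 10, led by phox2a, mki67 and top2a, log2 folds were 1.15 (SE 0.48) for apela, 1.03 (SE 0.40) for aplnra and -0.76 (SE 0.34) for apln. Calls appeared for apln in cluster 23 without flt1 mutant library 1 (1.95) and for apela in cluster 10 without WT library 2 (1.81). With no filter on low counts apln in cluster 23 (adjusted p = 0.00123), apela in cluster 10 (adjusted p = 0.0265) and aplnra in cluster 10 (adjusted p = 0.0473) were called. The share of all genes called under these settings is not given, so the calls are not read as results.

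Genes that act with the receptors were read from lists of Gαi proteins, arrestins and receptor kinases, ligand processing enzymes, Kdrl coupling, arterial and tip, venous, and flow genes. No gene of any list was called by genotype in the whole trunk, endothelial-like or neural-like cells. In endothelial-like cells the 4 smallest unadjusted p-values belonged to klf2a, a flow-induced transcription factor (1.09, SE 0.29, adjusted p = 0.262), esm1, a secreted tip cell proteoglycan (2.07, SE 0.61, adjusted p = 0.347), cxcr4a, a chemokine receptor (1.62, SE 0.51, adjusted p = 0.394), and arrb2b, a β-arrestin (-0.86, SE 0.30, adjusted p = 0.493). The arterial and tip list had a median log2 fold of 0.65 over 7 genes. The venous list had a median of -0.57 over 7 genes, and the median of all genes was -0.01.

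The list genes took part in the clustering, so their difference between endothelial-like and neural-like cells is a description. Among Gαi proteins gnai2a was 1.57 higher on the log2 scale in endothelial-like cells, and among arrestins arrb2b was 2.21 higher. The processing protease gene furina was 1.38 higher, while cpe, which encodes carboxypeptidase E, was lower at -4.58. Kdrl coupling genes past the threshold included kdrl (7.62), kdr (8.68), pik3cg (5.41) and rac1a (1.02). Medians were 0.41 for Gαi proteins, -0.59 for arrestins and receptor kinases and -0.26 for processing, against -0.30 for all genes.

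Genes whose mean levels followed those of the apelin genes across 17 classes were ranked among 13397 genes by Pearson correlation of log2(CPM + 1), a description without a test, since classes share libraries and depth. Unnamed clusters and classes with under 20 cells in any library were left out. Among them were photoreceptor-like cells and cluster 23, which had the highest mean apln. The closest to apln were lix1l (0.97), slit3 (0.95), gpd1l, uggt2 and zc3h7bb (0.94 each). The closest to apela were fgf10a and bmp5 (0.94 each), snai1b (0.93), sfrp2 (0.92) and sfrp1a (0.91). For aplnra they were adma (0.94), cntf (0.93), bmp6 (0.91), ackr3b and adam8b (0.90 each), all highest in endothelial-like cells. For aplnrb they were pdgfbb (0.80), cldn5b (0.79), arl4aa, ncam3 and ca4a (0.77 each), also highest there. Between the apelin genes the correlation was 0.64 for apln with aplnra, 0.63 for apln with apela, 0.57 for apela with aplnra, 0.53 for aplnra with aplnrb, 0.30 for apln with aplnrb and -0.05 for apela with aplnrb.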

How the data were processed

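Single-cell 3′ RNA sequencing was analysed for 4 trunk libraries. The deposited matrices hold whole-number UMI counts per gene and barcode, not normalized, and their headers name Cell Ranger 6.1.1, and per the labels the genome build was GRCz11. The labels name version 2 of the chemistry and the study's methods version 3. Cells with over 200 and under 4000 genes and under 5% mitochondrial UMIs were kept (19611). Counts were log-normalised and integrated across libraries over 30 dimensions and 2000 variable genes, and cells were clustered on 50 principal components at a resolution of 0.3 (neural-like cells 0.7, endothelial-like cells 1), with Seurat 5.3.0 under R 4.3.3. The SCTransform step that the study used was not run. To be named, a cluster needed at least 3 markers of a list detected and higher. Some clusters that met this were still left unnamed. Genes of another list led in cluster 0 and in endothelial subcluster 0, and cluster 15 had low depth. The apelin genes were chosen, and lists drawn up, with earlier results of these data known.

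UMIs were summed per library and class and tested with edgeR 4.0.16 (TMM scaling, filterByExpr, two-sided quasi-likelihood F test, Benjamini-Hochberg over all genes tested, threshold 0.05), which gave every adjusted p not credited to DESeq2 1.42.0. Comparisons between classes had library as a block. Classes needed 20 cells in each library, neural subsets 5. Permutation of 2 against 2 libraries cannot pass the threshold and was not used. Replicate libraries differed by far more than sampling noise (chi-square per degree of freedom 15.9 between the flt1 mutant and 168 between the WT libraries), so none was a copy of the other. This cannot tell whether they came from the same animals. Shares carry exact (Clopper-Pearson) 95% intervals, and 0 UMIs a floor of 3 counts, which cover counting error only. Named genes are the 4 apelin genes, the 5 genes most like each across classes, and list genes called or, where none was, the 4 of smallest p. Genes that led clusters were named as descriptions. No genome of the files' build was used, so no coordinates or sequences are given. Tests were checked on simulated data. Alternatives were DESeq2, no count filter, library totals, each library left out, over 500 genes per cell, the 5% of cells with the highest Scrublet score left out (scanpy 1.11.5), the replicate number as a block or no library block, a resolution of 0.6, and unnamed subclusters left out. One gene of the Kdrl coupling list is not reported here.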

Additional observations from a re-analysis of the deposited data

Results flagged for a closer look

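For each apelin gene, the highest positive and lowest negative log2 fold were picked among classes and clusters whose genotypes did not overlap. Opposite directions and the lack of overlap were thus set by this choice and are not results. For apln the choice fell on the unnamed clusters 23 and 10. In cluster 23 apln had 79.9 and 121 CPM in flt1 mutants against 33.1 and 28.3 CPM in WT, and in cluster 10 it had 26.4 and 12.7 CPM in flt1 mutants against 30.6 and 33.7 CPM in WT. The log2 folds differed by 2.47, and this difference was not tested. Likewise apela had 50.01 and 21.2 CPM in flt1 mutants against 9.94 and 20.2 CPM in WT in cluster 10, and 57.6 and 29.4 CPM in flt1 mutants against 69.2 and 70.9 CPM in WT smooth muscle-like cells. The log2 folds differed by 1.91, and this difference was not tested. None of the 4 folds passed the adjusted threshold in edgeR.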

How the results depend on the processing

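No alternative brought an apelin gene past the threshold between genotypes in the whole trunk, endothelial-like or neural-like cells, and the number of all genes called there, on which the background shares rest, moved widely. In the whole trunk 84 genes were called, against 626 with DESeq2, 175 with no count filter, 510 with library totals, 36 without the highest doublet scores and 3 to 445 with 1 library left out. In endothelial-like cells 3 were called, against 6 with DESeq2, 77 with no count filter, 1 with library totals, 1 without unnamed subclusters and 8 to 92 with 1 library left out. In neural-like cells 1 was called, against 30 with DESeq2, 282 with no count filter, 2 with library totals, 2 at a resolution of 0.6, 6 without unnamed subclusters and 4 to 28 with 1 library left out. Same-numbered libraries did not deviate together (correlation -0.38 in the whole trunk, 0.11 in endothelial-like and -0.21 in neural-like cells). Whether they shared more than a number, such as a preparation, was not tested. With the replicate number as a block 41 genes were called in the whole trunk and 4 each in endothelial-like and neural-like cells, and with the numbers crossed, chosen after seeing the data, 112 in the whole trunk and 6 in neural-like cells.

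Uncalled genotype folds changed sign under some alternatives. With 1 library left out, folds in the whole trunk ran between -0.23 and 0.06 for apln, -0.35 and 0.10 for apela, and -0.22 and 0.10 for aplnrb. In endothelial-like cells they ran between -0.55 and 0.24 for apln, -0.09 and 0.68 for aplnra, and -0.55 and 0.06 for aplnrb, and apln was 0.45 with DESeq2, 0.12 with the replicate block and 0 with library totals or over 500 genes per cell, while aplnrb was 0.65 without unnamed subclusters. In neural-like cells they ran between -0.12 and 0.40 for apln, -0.37 and 1.47 for aplnra, and -1.47 and 1.47 for aplnrb, and apln was -0.07 at a resolution of 0.6. The difference between the endothelial-like and neural-like genotype effects ran between -0.58 and 8.58 for apln (the last without WT library 2, when WT endothelial-like cells had 0 apln UMIs), -1.33 and 0.86 for aplnra, and -1.42 and 0.99 for aplnrb. It was -0.20 for apln with no replicate block, -0.21 for apln and 0.25 for aplnrb without unnamed subclusters, and 0.01 for aplnrb at a resolution of 0.6. Endothelial over neural apln was -7.22 without unnamed subclusters, by construction. This fold and the 8.58 rest on groups with 0 apln UMIs, so their sizes are not estimates.

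In the other classes 0 pairs were called by genotype, against 1 to 3 with 1 library left out. These were aplnra in fin fold mesenchyme-like cells, apela and apln in smooth muscle-like cells (apela -1.32 to -0.72, apln 0.97) and aplnrb in radial glia-like cells (1.51). In unnamed clusters 0 were called, against 3 with no count filter and 1 without flt1 mutant library 1 or WT library 2. The share of all pairs called under these settings is not given, so the calls are not read as results. The cause of these changes was not tested. The planned arterial-like against venous-like test was not run because no subcluster was named arterial-like. Clustering again with names sorted in another order kept 160 of 166 endothelial-like cells, moved neuron-like cells to 1082, against 1285, and left the endothelial means at 39.9 CPM of apln, 453 of aplnra and 131 of aplnrb. Thinning to 1000 UMIs lowered shares of cells with a UMI, and depth limits any statement on rare classes.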

Other observations

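A further gene with an apelin receptor symbol, aplnr2, was looked at after its values were seen. Chondrocyte or sclerotome-like cells had 65.7 and 64.0 CPM of aplnr2 in flt1 mutants against 44.1 and 45.7 CPM in WT, and radial glia-like cells 34.5 and 22.0 CPM in flt1 mutants against 37.7 and 29.5 CPM in WT. The genotypes did not overlap in chondrocyte or sclerotome-like cells and overlapped in radial glia-like cells. With 2 libraries per genotype a lack of overlap happens often by chance, and the share of all genes without overlap was not counted. The difference is thus not read as a result. Endothelial-like cells held 1 aplnr2 UMI in all 4 libraries together.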
